A study of Mus musculus with 18 samples.

Results

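T cells of the mouse urinary bladder were followed in 7 single-cell libraries. They were chosen by their transcript counts, as barcodes with at least 500 unique molecular identifiers (UMIs, the counts of distinct captured transcripts) and at least 2 UMIs of Cd3e, Cd3d and Cd3g together, the genes of the CD3 signalling chains. They also had fewer than 3 UMIs of the macrophage genes C1qa, C1qb and C1qc, and under 0.5% of their UMIs in each of a keratin set (Krt7, Krt8, Krt18, Krt19) and a collagen set (Col1a1, Col1a2, Col3a1). By this rule 429 of 35289 barcodes (1.22%) were T cells. The comparison group was 1512 other barcodes with at least 1 UMI of Ptprc, the pan-leukocyte gene for CD45, under the same keratin and collagen limits. Both classes were cut by thresholds on measured transcripts, so the levels of the threshold genes are a description of the choice. The 3 CD3 genes lie side by side on chromosome 9 of GRCm38, with Cd3g at 44969572 to 44980431, Cd3d at 44981769 to 44987052 and Cd3e at 44998735 to 45009663.

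All mice were C57BL/6 with no transgene or treatment in the labels, and every single-cell library pooled several animals. Of the whole-bladder libraries, the 22-month and the 3-month library each pooled 3 males, and 12-month libraries a and b and the 24-month library each pooled 2 mice of each sex. One detrusor-only library held cells of 3 females aged 14 months, the detrusor being the muscular wall, and a detrusor-enriched whole-bladder library held cells of 2 mice of each sex at that age. Also used were 1 library of single nuclei (12 months, 2 mice of each sex), Visium sections, in which RNA is caught on a grid of spots, from male bladders (2 at 22 months, 2 at 14 months), and bulk RNA of intact and of dissociated bladders of 12-month females (3 libraries each). Nothing in the labels says that libraries of 1 group came from separate animals, so p-values measure the spread between these libraries, which may be technical.

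T cells carry an antigen receptor made of alpha and beta chains or of gamma and delta chains, and the CD3 chains pass its signal to the kinases Lck and Zap70. Cells with an alpha-beta receptor usually bear a co-receptor, CD4 on helper and regulatory cells or CD8 on cytotoxic cells. Gamma-delta T cells mostly bear neither. In barrier tissues many T cells stay resident, and a class of gamma-delta cells there makes interleukin 17.

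Libraries differed widely in depth. The median UMIs per T cell were 1249 in the 22-month male library, 767 in the 3-month male library, 4345 and 5726 in the 12-month libraries a and b, 3649 in the 24-month library, 5050 in the detrusor-only library and 2912.5 in the detrusor-enriched library. T cells were shallower than other Ptprc-positive cells in every library, whose medians ran from 2019 to 9648. The male tables used barcodes of 14 bases and the others barcodes of 16 bases, and the deposited tables began at different depths: the lowest total of any barcode was 844, 582, 3764, 3990, 3173, 501 and 500 UMIs in the same order. T cells below 3173 UMIs could therefore not appear in the 3 whole-bladder libraries of mixed sex, and the effect of that floor on the T cells seen there was not tested. No T cell barcode was shared between libraries.

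The CD3 threshold separated barcodes that, pooled over libraries, also differed in T cell genes outside the rule. Of the 43 T cells with exactly 2 CD3 UMIs, just inside the rule, 27.9% had a UMI of Cd2 (a T cell adhesion receptor), 39.5% of Thy1, 41.9% of Skap1 and 44.2% of Cxcr6. Of the 158 barcodes just outside it, with exactly 1 CD3 UMI, the shares were 10.8%, 17.1%, 6.96% and 9.49%. In the detrusor-enriched library Thy1 went the other way (0% of 9 inside, 16.2% of 37 outside), while Cd2, Skap1 and Cxcr6 did not. Cd2 did so in 12-month library a, with 0% of 1 barcode inside and 27.8% of 18 outside. Nkg7, Lck and Ptprc had pooled shares of 30.2%, 27.9% and 41.9% inside and 8.23%, 9.49% and 21.5% outside. In the 3-month male library these genes were lower among the 16 barcodes inside than among the 31 outside. Nkg7 stood there at 18.8% and 22.6%, Lck at 6.25% and 6.45%, and Ptprc at 6.25% and 12.9%. In 12-month library a Nkg7 (0% and 5.56%) and Lck (0% and 11.1%) also went the other way. The median depth was 1117 UMIs inside and 4225 UMIs outside, so the higher shares inside came from shallower barcodes. The limits on C1q, keratin and collagen genes removed 67 of the 496 barcodes that met the CD3 threshold. Cd2, which lies on chromosome 3 at 101275908 to 101287939 and was fixed as a marker without entering the rule, had a UMI in 48.3% of T cells, 10.3% of other Ptprc-positive cells and 0.324% of 3392 fibroblast barcodes, which should lack it and had medians of 1846.5 to 14734 UMIs per library. After thinning each cell to 1000 UMIs in the 323 T cells that reach it, the share in T cells was 31.3%. Cd2 was thus more frequent in these cells than in the other leukocytes, as their label has it.

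The number of T cells per library was 130 (22-month male), 110 (3-month male), 19 and 6 (12-month a and b), 40 (24-month), 76 (detrusor-only) and 48 (detrusor-enriched). As a share of T cells plus other Ptprc-positive cells this was 31.9%, 49.1%, 10.3%, 9.38%, 20.4%, 14.9% and 13.5%, with a median of 14.9%. Both male libraries stood above the other 5, and the exact 95% binomial intervals, which cover counting error only, did not reach them (27.4% to 36.6% and 42.4% to 55.9%, against upper bounds of 15.6% to 26.7%). Ptprc itself was seldom caught in the male T cells: 32.3% and 19.1% of them had a UMI of it, against 70.0% to 93.8% of T cells elsewhere. T cells were not required to have Ptprc while the other cells were. When a Ptprc UMI was required of both, an alternative added after seeing the data, the shares were 13.1%, 15.6%, 9.29%, 7.94%, 15.2%, 13.9% and 12.8%, and the male libraries no longer stood apart. With only barcodes of at least 1000 UMIs the 3-month male share fell from 49.1% to 24.6%. The median over libraries was 22.4% when 1 CD3 UMI was enough. It was 28.6% after thinning to 1000 UMIs, which left out barcodes below that depth. The level of the share thus depends on the threshold and depth.

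**Figure D1:**
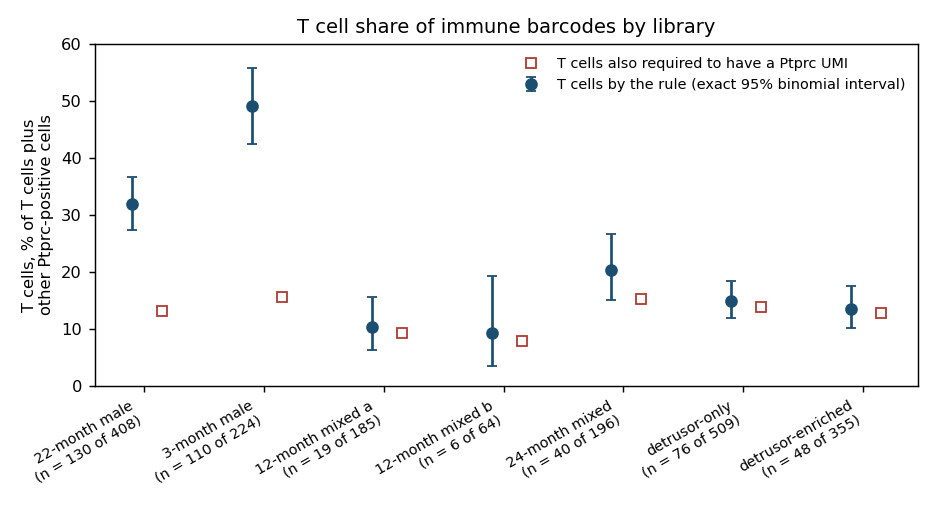
T cells as a percentage of T cells plus other Ptprc-positive cells in each of 7 libraries (filled circles, bars are exact 95% binomial intervals for counting error), with the share when T cells also needed a Ptprc UMI (open squares). The 22-month and 3-month male libraries lie at 31.9% and 49.1% by the rule and at 13.1% and 15.6% with Ptprc required.

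The ages of the whole-bladder libraries allow a comparison of the T cell share between older (22 and 24 months) and younger (3, 12 and 12 months) bladders. The share was 26.1% ± 8.10 (SD, n = 2) in older and 22.9% ± 22.7 (SD, n = 3) in younger libraries, a difference of 3.22 percentage points (two-sided exact permutation p = 1; 0.1 is the smallest p this design allows). The groups overlapped. Leaving out 1 library turned the difference to -2.51 (without the 22-month male library), -3.11 or -3.55 (without 12-month library a or b), and it was 8.95 without the 24-month library and 16.3 without the 3-month male library. Within the male libraries the older one was lower by 17.2 points, with a signed difference of -17.2, and among the mixed-sex libraries the older one was higher by 10.6 points over the mean of the 12-month pair. With Ptprc required of T cells, the difference was 3.24 points overall (exact permutation p = 0.4), -2.43 in males and 6.60 in mixed-sex libraries. Thinning to 1000 UMIs before applying the rule, with shallower barcodes left out, gave 11.7 points (exact permutation p = 0.3). It gave 13.4 points in males and 7.23 in mixed-sex libraries, with 25 T cells left in the 3-month male library. Keeping only barcodes of at least 1000 UMIs gave 9.57 points (exact permutation p = 0.3), with 3.62 in males. The direction within males therefore changed with how depth was handled.

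Co-receptor transcripts divided the T cells unevenly. Cd8a or Cd8b1, the CD8 chains encoded side by side on chromosome 6 (71373427 to 71379171 and 71322788 to 71337492), had a UMI without Cd4 in 128 of 429 T cells (29.8%). Cd4, also on chromosome 6 at 124864693 to 124888247, had a UMI without Cd8 in 33 (7.69%), both were seen in 2, and neither was seen in 266 (62.0%). Background was low for CD8 genes, with a UMI in 0.860% of other Ptprc-positive cells and 0.265% of fibroblast barcodes. Cd4 was seen in 8.16% of all T cells and in 5.42% of other Ptprc-positive cells, but in 0.0295% of fibroblast barcodes. Since a transcript present in a cell can go uncaught, a cell with neither is one in which no UMI was seen, not one shown to lack both proteins.

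The Cd8-only share of T cells was 41.5%, 23.6%, 31.6%, 16.7%, 32.5%, 21.1% and 25% in the library order above. It was highest in the 22-month male library, where the interval was 33.0% to 50.5%. The 3-month male library lay within the range of the mixed-sex and detrusor libraries. After thinning to 1000 UMIs, 10.5% (detrusor-only library, lowest) to 41.9% (22-month male library, highest) of T cells had a UMI of either CD8 gene. The Cd4-only cells numbered 5, 3, 3, 1, 4, 14 and 3, so that 14 of the 33 were in the detrusor-only library.

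A further group carried some of the genes known from interleukin 17 producing cells. At least 1 UMI of Il17a, Il17f, Il23r (the interleukin 23 receptor) or Cd163l1 (a scavenger receptor known from gamma-delta T cells, on chromosome 7 at 140197218 to 140231145) was seen in 84 of 429 T cells (19.6%), against 1.12% of other Ptprc-positive cells and 0.206% of fibroblast barcodes. This set of 4 genes was chosen after their values had been seen, and Il17f had 1 UMI, in 1 T cell. Genes of the gamma-delta and type 17 list outside the set were uneven. Blk had a UMI in 10.5% of T cells and 2.45% of other Ptprc-positive cells, Maf in 28.0% and 37.4%, and Ccr6 in 1.17% and 0.794%. Sox13 had one in 2.33% of T cells and 4.51% of fibroblast barcodes, and Il1r1 in 6.06% and 11.8%. Of the 84 cells, 80 had neither co-receptor, 4 had Cd8 and 0 had Cd4. The group was present in every library, with 20, 18, 2, 3, 11, 16 and 14 cells, or 15.4%, 16.4%, 10.5%, 50%, 27.5%, 21.1% and 29.2% of T cells. The 50% of 12-month library b rests on 3 of 6 cells, with an interval of 11.8% to 88.2%. Cd163l1 was the most frequent of the genes, in 13.5% of T cells, followed by Il23r in 8.86%. Il17a itself was rarer, with 53 UMIs in 13 T cells, and it had no UMI in the 1512 other Ptprc-positive cells, which allows a share of up to 0.198% of cells with a UMI.

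**Figure D2:**
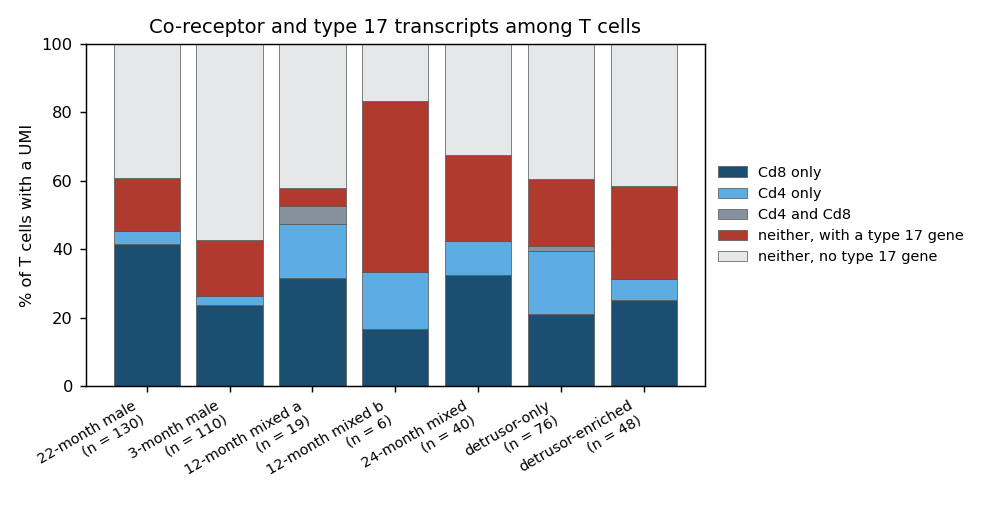
Stacked percentages of T cells in each library with a UMI of Cd8a or Cd8b1 only, of Cd4 only, of both, or of neither, the last split by whether any of Il17a, Il17f, Il23r or Cd163l1 was seen. Cells with a type 17 gene and no co-receptor occur in all 7 libraries, and the bars for the 12-month libraries rest on 19 and 6 cells.

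Antigen receptor genes were listed in the detrusor-only and detrusor-enriched tables and were read there only. Of their 124 T cells, 113 had a UMI of the beta-chain constant genes Trbc1 or Trbc2 and 78 of the alpha-chain constant gene Trac. Trdc, the delta-chain constant gene, was seen in 21 cells, 10 of 76 in the detrusor-only library (13.2%, interval 6.49% to 22.9%) and 11 of 48 in the detrusor-enriched library (22.9%, interval 12.0% to 37.3%). In the same 2 libraries 1.76% of other Ptprc-positive cells and 0.294% of fibroblast barcodes had a Trdc UMI. Trdc and Trac were seen together in 1 cell. A Trbc1 or Trbc2 UMI was seen in 16 of the 21 Trdc cells and in 97 of the 103 T cells without Trdc. A gamma chain constant gene (Tcrg-C) was seen in 14 of the 21 and in 38 of all 124 T cells. Of the 21 Trdc cells, 18 also had a type 17 gene, 9 in each library. Such a gene was seen in 16 detrusor-only and 14 detrusor-enriched T cells in all, so some of these had no Trdc UMI.

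Variable segments were few but uneven. Of the 6 genes counted as delta variable segments, only Trdv4 had UMIs in T cells. It had 28 UMIs in 6 detrusor-only cells and 23 UMIs in 5 detrusor-enriched cells. The most frequent gamma segment was Trgv2, in 8 and 10 cells. Alpha variable segments were spread over 14 different genes in 14 detrusor-only cells and over 5 genes in 5 detrusor-enriched cells. The most frequent in the detrusor-only library, Trav13-4-dv7, was in 2 cells. It is named for both alpha and delta chains and was counted as alpha only. These tables count whole genes, so junction sequences and clones were not read.

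Trdc cells without a co-receptor (10 cells) were set against Cd4 or Cd8 cells without Trdc (14 cells) within the detrusor-enriched library, the 1 library with at least 10 cells of each. A test over libraries needs 3, so values are given without one, as CPM, the UMIs of a gene in all cells of a group scaled to a fixed total of UMIs. Cxcr6, a chemokine receptor of tissue-resident lymphocytes on chromosome 9 at 123806477 to 123811754, stood at 1112 CPM in Trdc cells and 151 CPM in co-receptor cells. Il7r, the interleukin 7 receptor, stood at 1738 and 508 CPM, Il18r1 at 452 and 32.4 CPM, Icos at 660 and 173 CPM, and Cd163l1 at 487 and 0 CPM. The cytotoxic granule gene Nkg7 was at 208 CPM in Trdc cells and 725 CPM in co-receptor cells, the chemokine Ccl5 at 139 and 4856 CPM, and Lck at 34.8 and 379 CPM. The 2 groups differed in depth, with medians of 2229 and 5336.5 UMIs per cell, and the part of depth in these differences was not tested.

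Cd8 and Cd4 cells could be set side by side in the detrusor-only library, with 16 and 13 cells without Trdc. Among 2340 genes with at least 10 UMIs over both groups, 47.3% were higher in the Cd8 cells and 52.7% in the Cd4 cells. Of the cytotoxic and type 1 genes at that depth, 9 were higher in the Cd8 cells and 2 in the Cd4 cells. Ccl5 stood at 7734 against 289 CPM, Nkg7 at 1098 against 397 CPM, the granzyme Gzmk at 118 against 0 CPM, and Eomes, a transcription factor of cytotoxic lymphocytes, at 206 against 0 CPM. Of the regulatory list 5 genes reached that depth, and 5 were higher in the Cd4 cells. General T cell lists also leaned to the Cd4 cells. Higher there were 4 of 4 receptor chain genes, 3 of 3 checkpoint receptors and 11 of 17 signalling and co-receptor genes. The smooth muscle genes Acta2, Cnn1, Des, Myh11 and Tagln were higher in the Cd8 cells, and their part in these differences was not tested. In Cd4 against Cd8 cells the receptor Tnfrsf4 (OX40) stood at 867 against 9.80 CPM, Izumo1r (folate receptor 4) at 253 against 19.6 CPM, Tnfrsf18 (GITR) at 361 against 88.2 CPM and Ctla4 at 289 against 78.4 CPM. These are single-library values with no replicate check. Foxp3, the regulatory T cell factor, had a UMI in 6 of all 429 T cells (1.40%) and in no other Ptprc-positive cell.

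The contrast of Cd8-only cells with cells of neither co-receptor could be repeated in 5 libraries that held at least 10 of each. These were the 22-month male, 3-month male, 24-month, detrusor-only and detrusor-enriched libraries, with 121 and 253 cells in all. Median UMIs per cell were 1413, 900, 3648, 5767.5 and 4757.5 in Cd8-only cells and 1171, 755, 3650, 5308 and 2240 in cells with neither. Nkg7 was at 5643, 4481, 2444, 1098 and 975 CPM in Cd8-only cells and at 1062, 897, 195, 144 and 252 CPM in cells with neither. It was higher in the Cd8-only cells of each library. Ccl5 followed the same order, with 37876, 21147, 12051, 7734 and 6439 CPM against 4658, 4113, 726, 826 and 544 CPM, and Gzmk with 357, 352, 546, 118 and 100 CPM against 28.0, 69.0, 8.86, 0 and 0 CPM. Ctsw (a protease of cytotoxic cells) and Eomes were also higher in the Cd8-only cells of 5 of 5 libraries.

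Among 8036 genes with at least 10 UMIs over both groups, 3.43% were higher in the Cd8-only cells of all 5 libraries and 7.03% in the cells with neither in all 5. Of the cytotoxic and type 1 genes at that depth, 8 of 15 were higher in Cd8-only cells throughout and 0 in the other direction. Of 19 signalling and co-receptor genes, 7 were higher in Cd8-only cells (Cd2, Cd5, Cd6, Fyb, Lat, Lck and Rhoh) and 2 in cells with neither (Icos and Thy1). Of 6 naive and recirculating genes, Ccr7 and Klf2 were higher in Cd8-only cells and Il7r in cells with neither. In cells with neither, 4 of 7 gamma-delta and type 17 genes, 4 of 8 cytokine receptors and 2 of 6 residence genes were higher throughout. So were 7 of 16 dissociation response genes (Atf3, Egr1, Fos, Jun, Junb, Nr4a1 and Zfp36), 2 of 4 macrophage genes (Apoe and Ctss) and 2 of 6 fibroblast genes (Col6a1 and Gsn). The part of depth, of handling and of RNA from other cells in these differences was not tested.

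Cxcr6 was at 582, 831, 334, 235 and 244 CPM in Cd8-only cells and at 1500, 2333, 770, 780 and 806 CPM in cells with neither, so the latter were higher in each library. Il7r was at 61.2, 75.5, 106, 569 and 645 CPM against 186, 276, 319, 935 and 1562 CPM. Cd163l1 was at 0, 0, 30.4, 0 and 129 CPM against 335, 276, 292, 136 and 171 CPM. Ramp1, which encodes a subunit of the receptor for the neuropeptide CGRP and lies on chromosome 1 at 91179822 to 91225196, was at 61.2, 75.5, 45.5, 147 and 229 CPM against 792, 1477, 859, 606 and 363 CPM. Ramp1 was singled out after its values were seen. It is no T cell marker in this tissue: 28.1% of fibroblast barcodes and 31.1% of other Ptprc-positive cells had a UMI, against 40.1% of T cells (9.17%, 8.96% and 24.8% after thinning to 1000 UMIs). Il23r, the kinase Blk, the transcription factor Maf, Icos and Il18r1 were likewise higher in cells with neither in 5 of 5 libraries. Cd69, an early activation and residence marker, was higher in Cd8-only cells in 3 libraries and lower in 2, with means of 283 and 262 CPM. No p is given for these contrasts, since the groups were cut from the same cells by a UMI of single genes.

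**Figure D3:**
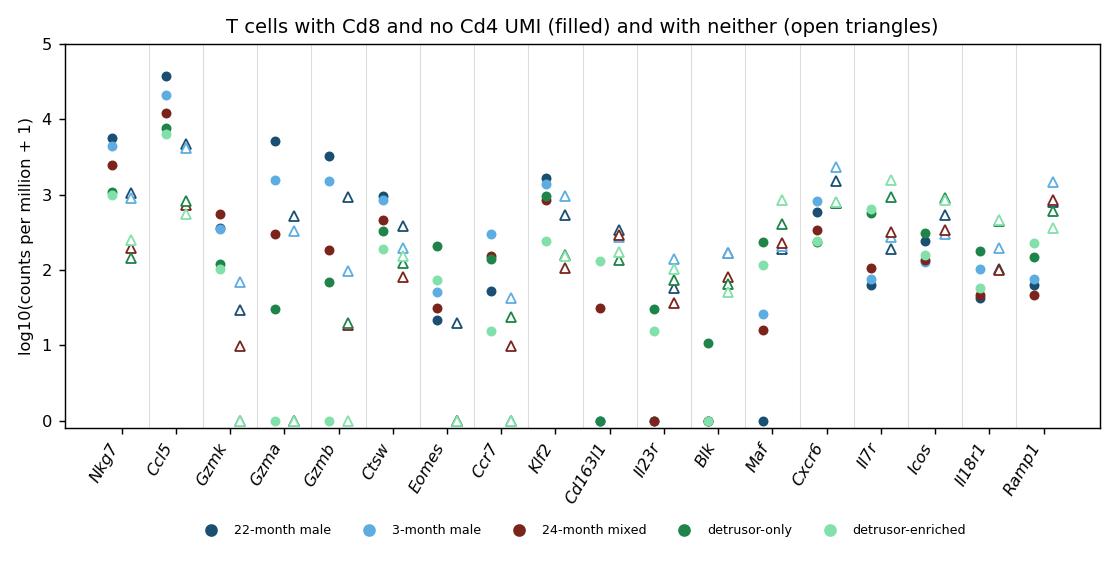
Levels of 18 genes as log10(CPM + 1) in Cd8-only T cells (filled circles) and in T cells with neither co-receptor (open triangles), each point being the summed cells of 1 of 5 libraries, by colour. Nkg7, Ccl5 and Gzmk lie higher in Cd8-only cells, and Cxcr6, Il7r, Icos, Il18r1 and Ramp1 lie higher in cells with neither, in each library.

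The share of T cells with a UMI of the effector granule genes varied between libraries. Gzmb had a UMI in 42.3% of T cells of the 22-month male library, 13.6% of the 3-month male, 10.5% and 16.7% of the 12-month, 10.0% of the 24-month, 6.58% of the detrusor-only and 0% of the detrusor-enriched library, where 0 of 48 cells had one. For Gzma the shares were 26.9%, 5.45%, 5.26%, 0%, 5.00%, 2.63% and 0%. The 22-month male library was the highest for both genes, which natural killer cells also carry. The summed level of 6 natural killer genes in T cells was highest in the same library, at 163 CPM against 0 to 82 CPM in the others. Ncr1 or Klrb1c had a UMI in 5.38% of its T cells, and the part of natural killer cells in the Gzma and Gzmb shares was not tested. Over all libraries Gzmb had a UMI in 19.1% of T cells, 4.30% of other Ptprc-positive cells and 0.472% of fibroblast barcodes, and Gzma in 10.7%, 4.30% and 1.74%. Since each is a single library, the differences between libraries were not tested. Its T cells had the second lowest median depth, 1249 UMIs.

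T cells were compared with the other Ptprc-positive cells of the same library to describe what sets them apart within the immune compartment. Of the 1512 other cells, 56.7% had a UMI of the macrophage genes Csf1r or Adgre1, 46.3% of the dendritic cell genes Flt3, Cd209a or Xcr1, 15.8% of the B cell genes Cd79a, Cd79b or Ms4a1 and 4.30% of the natural killer genes Ncr1 or Klrb1c. Counts were summed per library and class and compared in 6 libraries with edgeR's quasi-likelihood test, with the library as a term. The 12-month library b was left out with its 6 T cells. Of 6379 genes tested outside the rule, 1964 (30.8%) passed a Benjamini-Hochberg adjusted p under 0.05, with 693 higher in T cells (10.9%) and 1271 lower (19.9%), and the median log2 fold change was -0.05. Without the detrusor-only library 1281 of 4666 tested genes were called, and without the library term 656 of 3833. Because T cells were gated on CD3 and against C1q, the gate fixes part of the direction of T cell and macrophage genes, and their calls describe the classes.

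Of the signalling and co-receptor list, 18 of 19 genes were tested and 18 were called higher in T cells, with a median log2 fold change of 4.62. In this comparison genes nearly silent in other cells, in any list or named singly, passed the filter on low counts through T cells alone. Counts, fold changes and p-values of genes higher in T cells therefore describe the classes and support nothing further. Lat, the adaptor that relays the signal of the receptor, had a lowest, median and highest level over the 6 libraries of 206, 473 and 1264 CPM in T cells and 1.11, 2.86 and 21.1 CPM in other cells. The classes did not overlap, and the log2 fold change was 6.14 (SE 0.29, edgeR adjusted p = 8.14e-11). Thy1 stood at 485 to 1656 CPM against 5.83 to 80.8 CPM, although 50.1% of fibroblast barcodes also had a Thy1 UMI. Lck rose by 4.58, the co-stimulatory receptors Cd28 and Icos by 3.33 and 5.81, and the surface receptor Cd6 by 6.70, all on the log2 scale. All 10 transcription factors of the T lineage list were called higher (median 4.05), but 3 of these calls did not hold in every alternative: edgeR's adjusted p was 0.0842 for Gata3 and 0.108 for Ikzf3 without the male libraries, 0.422 for Gata3 without the keratin and collagen limit on other cells, and 0.0889 for Runx3 under the C1q limit. Gata3 was also lost with high-scoring doublets removed (0.0627) and Runx3 among barcodes of at least 1000 UMIs (0.0863). Called in each of these were Bcl11b at 62.3 to 474 CPM against 0 to 10.5 CPM and Tcf7 at 38.0 to 203 CPM against 0 to 6.97 CPM.

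The genes with the largest rise, by a fixed rule (at least 50 CPM in T cells, higher in every library), were Cd8a (7.13), Izumo1r (7.11), the thymocyte selection gene Themis (6.95), the CD40 ligand Cd40lg (6.88), Cd6 (6.70), Actn2 (6.37), Cd8b1 (6.35), Gzmk (6.34), Bcl11b (6.24), Lat (6.14), Tnfsf11 (6.09), which encodes RANKL, and the checkpoint receptor Pdcd1 (5.88). Cd40lg reached 303 CPM in the detrusor-enriched library and 156 CPM in the detrusor-only library, against 17.8 to 28.5 CPM in the other 4. Actn2, which encodes an actin-crosslinking protein known from muscle, ran from 17.1 to 320 CPM in T cells and stayed at or below 2.44 CPM in other Ptprc-positive cells, with 202 UMIs against 11. Izumo1r rested on 88 UMIs in T cells against 3 in other cells, a ratio of 250 per UMI total with a counting interval of 82.9 to 1240.

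Only 5 of the 15 gamma-delta and type 17 genes were tested, the others being below the filter on low counts or not listed in all tables. Of the 5, 4 were called higher. Cd163l1 stood at a lowest, median and highest level of 19.2, 160 and 188 CPM in T cells and at 0, 0.505 and 9.76 CPM in other cells (log2 5.34, SE 0.49, edgeR adjusted p = 1.26e-06). The 12-month library gave the lowest value, and the classes did not overlap. Il23r rose by 5.58. Il17a had 45 UMIs in the T cells of these libraries and 0 in other cells, at least 128-fold higher against a floor of 3 counts over the group, and DESeq2 did not call it (adjusted p = 0.123). Maf, at 94.9 to 594 CPM against 17.6 to 644 CPM, overlapped between classes and was not called (edgeR adjusted p = 0.296).

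Of the 13 tested cytotoxic and type 1 genes, 8 were called higher, 1 lower and 4 did not pass the test (median 2.37). Nkg7 stood at a lowest, median and highest level of 432, 941 and 3226 CPM in T cells against 13.3, 109 and 390 CPM, with no overlap (log2 3.13, SE 0.60, edgeR adjusted p = 0.00943). Ccl5 stood at 1642, 4258 and 20001 CPM against 97.1, 494 and 2033 CPM, overlapping across libraries but higher in the T cells of 6 of 6 libraries (log2 2.94, SE 0.64, edgeR adjusted p = 0.0157). Both genes were highest in the 2 male libraries. With the male libraries left out, an alternative added after seeing the data, Ccl5 (log2 3.20, edgeR adjusted p = 0.119) and Nkg7 (log2 3.56, 0.0747) were no longer called, although their fold changes were no smaller. The calls of Ccl5 were also lost without the 22-month male (0.0501) or the detrusor-only library (0.0664), and when other cells had to be under 3 C1q UMIs (0.0905) or no filter was used (0.0574). Ifng, the gene of interferon gamma, rose by 3.95 (log2 4.16, edgeR adjusted p = 0.0747 without the male libraries) and the chemokine Xcl1 by 2.37. Ccl4, a chemokine shared with myeloid cells, was lower in T cells in 6 of 6 libraries (log2 -3.21, edgeR adjusted p = 0.0152, and log2 -4.13, 0.0514 without the male libraries). Gzma was not called (edgeR adjusted p = 0.704): its T cell level ran from 0 CPM in the detrusor-enriched to 2633 CPM in the 22-month male library, higher than other cells in 3 libraries and lower in 3.

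**Figure D4:**
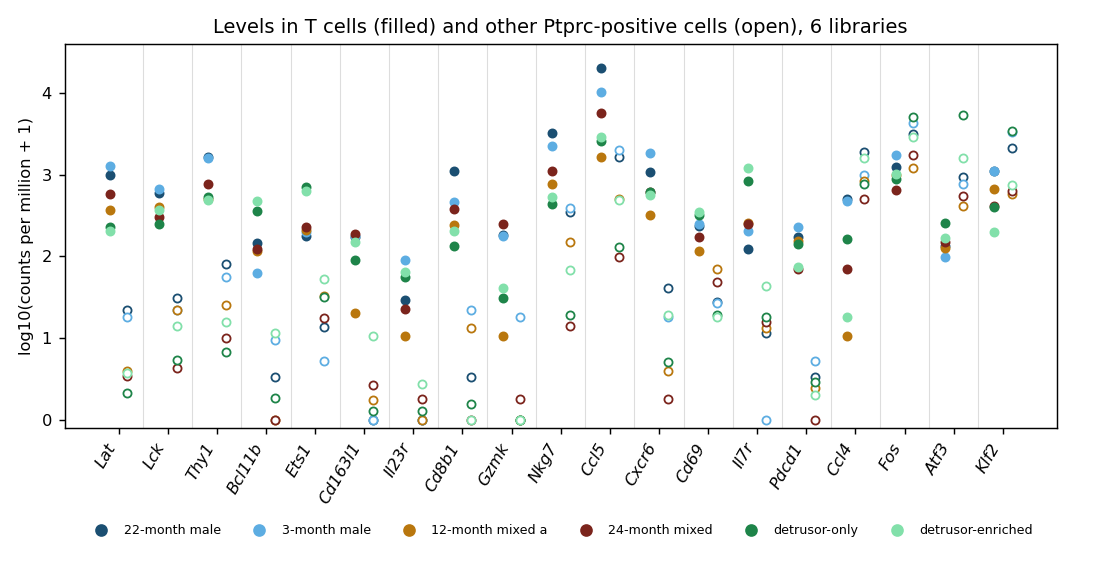
Levels of 19 genes as log10(CPM + 1) in T cells (filled) and other Ptprc-positive cells (open), each point being the summed cells of 1 of 6 libraries, by colour. Lat, Lck, Cd163l1 and Cxcr6 separate the classes in each library, while Ccl4, Fos and Atf3 lie lower in T cells.

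Residence and recirculation genes were mixed. In the residence list 3 of 6 tested genes were called higher: Cxcr6 at 317, 614 and 1851 CPM (lowest, median, highest) against 0.830, 10.7 and 39.8 CPM (log2 5.72, SE 0.50, edgeR adjusted p = 4.01e-05), Cd69 by 2.61 and the collagen-binding integrin Itga1 by 1.63. Itga1 was no longer called against other cells under the C1q limit (edgeR adjusted p = 0.138), nor Cd69 without the male libraries (log2 2.55, 0.167). Itgae, the integrin chain CD103, was below the filter on low counts and had a UMI in 1.86% of T cells. Among naive and recirculating genes, Il7r (4.38), Lef1 (4.64) and S1pr1 (1.39) were called higher, Klf2 (-1.73) and Ccr7 (-0.83) lower. The call of Klf2 was lost without the male libraries (log2 -1.74, edgeR adjusted p = 0.0913) or the keratin and collagen limit (0.0755), and that of Ccr7 when other cells had no keratin or collagen limit (0.187). Ccr7 was at 11.4 to 134 CPM in T cells against 34.0 to 137 CPM, so its ranges overlapped although it was lower in 6 of 6 libraries. Ccr7 had a UMI in 6.06% of T cells.

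Of the cytokine receptor list 6 of 8 tested genes were called higher, including Il18r1 (4.85), Il12rb1 (3.76) and Il2rb (2.94), and Il6ra was lower (-3.14). Of the regulatory list 7 of 8 tested genes were called higher, including Tnfrsf4 (5.51), Ctla4 (4.98) and Il2ra (3.87), and Il10 was lower (-2.47). Other cells held 43, 36 and 40 UMIs of Tnfrsf4, Ctla4 and Il2ra, so the count is a description. Several of these are also carried by activated T cells of other kinds, and Foxp3 was below the filter. Among checkpoint receptors Pdcd1, Ctla4 and Cd160 (2.12; edgeR adjusted p = 0.0548 against other cells under the C1q limit) were called higher and Havcr2, also a myeloid gene, lower (-2.91). None of 6 proliferation genes was called by edgeR, and Mki67 had a UMI in 6.06% of T cells.

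The immediate early and heat shock genes that rise during tissue dissociation were lower in T cells, with 11 of 16 tested genes called lower, none higher, and a median log2 fold change of -1.55. The call of Dnajb1 was lost with DESeq2 (adjusted p = 0.0835), in edgeR without the 24-month (0.0813) or detrusor-only library (0.123), and under the C1q limit (0.103). Without the library term the calls of Dnajb1 (edgeR adjusted p = 0.450), Fosb (0.369), Jund (0.0612) and Ier2 (0.215) were lost. The same setting ended the calls of Fyb (0.257), Runx3 (0.0645), Xcl1 (0.174), Ccr7 (0.451) and S1pr1 (0.298) given above. Fos had a lowest, median and highest level of 646, 1005 and 1753 CPM in T cells against 1220, 3012 and 5115 CPM in other cells (log2 -1.81, SE 0.22, edgeR adjusted p = 4.01e-06). The ranges overlapped across libraries, and T cells were lower in 6 of 6. Atf3 stood at 97.9, 142 and 259 CPM against 412, 861 and 5415 CPM with no overlap.

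Macrophage genes had the largest falls. Called lower were 9 of 9 tested macrophage or monocyte genes (median -6.62) and 6 of 6 tested dendritic and antigen presentation genes (median -5.05). Genes nearly silent in T cells, such as Csf1r and Xcr1 with 2 and 1 UMIs there, passed the filter on low counts through other cells alone. Counts, fold changes and p-values of genes lower in T cells therefore also describe the classes and support nothing further. Of the dendritic and antigen presentation genes, Cd209a, H2-Aa, H2-Ab1 and Cd74 lost their calls in several fits with 1 library left out (edgeR adjusted p = 0.0535 to 0.0813, among them without the 3-month male and without the 24-month library for all 4) and without the male libraries (0.105 to 0.201). Their log2 fold changes stayed at or below -3.97 there. Pf4 had 2 UMIs in T cells against 15671 in other cells, a ratio of 918 with a counting interval of 254 to 7580. The other genes with the largest fall had no UMI in T cells and were, against a floor of 3 counts over the group, at least 179-fold lower for the folate receptor Folr2, 124-fold for Fcrls, 93.5-fold for Cd163, 84.2-fold for Cd209d, 61.7-fold for Cd209b, 45.8-fold for Clec4n, 34.3-fold for Adap2, 30.6-fold for Nfam1 and 25.8-fold for Fcgr1. Of 3 tested natural killer genes none was higher, and Ncr1 was lower (-2.20).

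Markers of other cells were measured in the T cells beside these results. None of the 6 tested urothelial and 5 tested smooth muscle genes was called, nor 5 of 6 fibroblast genes, Gsn being lower (-0.61) with a call that was lost in most alternatives. Dcn, a fibroblast gene, had a UMI in 63.6% of T cells and 68.6% of other Ptprc-positive cells, and the macrophage gene Lyz2 in 15.6% and 82%. The antigen presentation genes H2-Aa or H2-Ab1 had one in 34.3% of T cells, unevenly over libraries. Their share was lowest in the detrusor-only library (3.95%) and highest in the 22-month male library (58.5%). The part of this unevenness in differences between libraries was not tested. Jchain, a plasma cell gene, was at 10 or more UMIs in 3 T cell barcodes, 1 in the 12-month library a (1913 UMIs) and 2 in the 24-month library (up to 1674 UMIs), and doublet scoring marked none of the 3. Their part in the results of these libraries was not tested.

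The transcriptomes of T cells from older (22 and 24 months) and younger (3 months and 12 months a) libraries were compared with the sex mix as a term, which left 1 residual degree of freedom. By edgeR's quasi-likelihood test 0 of 2659 genes (0%) passed a Benjamini-Hochberg adjusted p under 0.05, the smallest being 0.686, and 106 had an unadjusted p under 0.05. DESeq2 also called 0. Ccl5 stood at 19652 and 5546 CPM in the older 22-month male and 24-month mixed libraries and at 10025 and 1614 CPM in the younger 3-month male and 12-month mixed ones (log2 1.46, edgeR adjusted p = 0.686). It was higher in the older library of each sex mix, while the ages overlapped. The cytotoxic list had a median of 0.89 over 12 tested genes against 0.02 over all tested, and none of its members was called. Markers of other cells shifted as much in these T cells: the medians were 0.98 over 4 tested fibroblast genes (Lum 2.64), -1.65 over 5 B and plasma cell genes (Ms4a1 -4.36) and -0.97 over 3 dendritic genes, and their part in the cytotoxic shift was not tested. Without the filter on low counts, 17 of 12617 genes were called by edgeR, 11 of them higher in the older libraries.

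**Figure D5:**
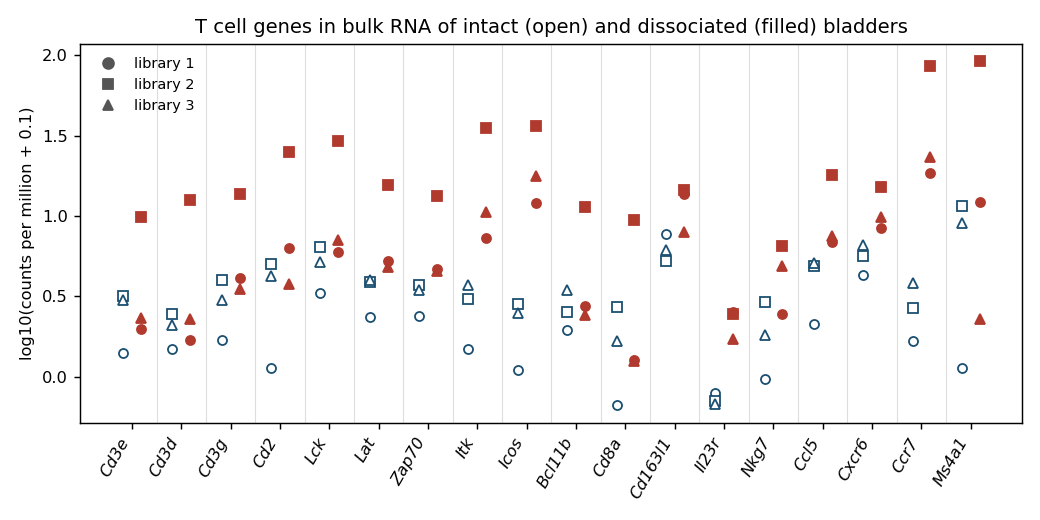
Levels of 18 genes as log10(CPM + 0.1) in 3 intact (open) and 3 dissociated (filled) bulk libraries of 12-month female bladders. Symbols stand for library numbers, which are not known to pair samples. Dissociated library 2 lies highest for Cd3e, Cd2 and most other T cell genes, and for the B cell gene Ms4a1.

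Bulk RNA of dissociated and intact bladders gives a view of genes of the T cell lists without a gate. A higher level there can come from more T cells, from more RNA per cell or from other cells. These cannot be told apart in bulk samples. Several of the genes are not confined to T cells: Thy1 and Lef1 had a UMI in 50.1% and 16.7% of fibroblast barcodes. Mean levels in intact bladders were 151 CPM for Gata3 and 55.6 CPM for Ets1, against 2.43 CPM for Cd3e. Of 16538 genes tested, 9798 (59.2%) were called by edgeR (adjusted p under 0.05), 27.9% higher and 31.3% lower in dissociated bladders. The T cell genes tested there were 33: the CD3 genes, Cd247 alone of the receptor chain list, and the signalling and transcription factor lists. Of these 33, 16 were called (48.5%), 15 higher (45.5%) and 1 lower. Their median log2 fold change was 1.59 against -0.03 over all genes. The 2 groups did not overlap, with dissociated higher, for 13 of the 33 genes and for 25.6% of all tested genes. Dissociated library 2 was the highest of the 6 libraries for 30 of the 33 genes. Without it 11 were called, 9 of them higher, and without any 1 intact library 7 were called.

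The CD3 genes themselves were not called. Cd3e was at 1.30, 3.07 and 2.92 CPM in intact and at 1.89, 9.73 and 2.23 CPM in dissociated bladders (log2 1.00, SE 0.64, edgeR adjusted p = 0.208). The groups overlapped, and library 2 carried the high value. Cd2 behaved alike, with 1.04, 4.90 and 4.12 CPM against 6.26, 24.9 and 3.68 CPM (edgeR adjusted p = 0.0675). Icos rose the most among the 33 genes, from 1.00, 2.73 and 2.38 CPM to 12.0, 36.0 and 17.6 CPM (log2 3.47, edgeR adjusted p = 0.000661), with no overlap. Ptprc was at 30.6, 58.5 and 51.1 CPM in intact and at 90.7, 315 and 81.7 CPM in dissociated bladders, and the B cell gene Ms4a1 at 1.04, 11.4 and 8.88 CPM against 12.2, 91.7 and 2.19 CPM. Library 2 was thus high for leukocyte and B cell genes too, and the part of immune cell content in the T cell calls was not tested.

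Some of the other genes described above differed in the bulk comparison, and others were not called. Cxcr6 was at 4.20, 5.54 and 6.54 CPM in intact and at 8.29, 14.9 and 9.76 CPM in dissociated bladders, without overlap (log2 1.12, edgeR adjusted p = 0.00536). Il23r rose by 1.88 and Cd163l1 by 1.04. Cd8a and Cd8b1 were not called, and Cd4, which myeloid cells also express, rose by 1.08, a call that was lost without any 1 intact library (edgeR adjusted p = 0.0690 to 0.121). Cd69 (3.91), Ctla4 (4.48) and Ccr7 (4.11) rose by more, whereas Itga1 fell by 1.67 on the log2 scale.

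T cell transcripts were scarce in nuclei and present in sections. Among 3472 nuclei with a median of 1126.5 UMIs, 11 CD3 UMIs were counted in 10 nuclei and 1 nucleus met the rule. In the sections, the share of spots with a CD3 UMI was 16.5% and 25.5% at 22 months and 10.0% and 9.97% at 14 months, with 9.59, 19.5, 5.60 and 6.61 CPM of the 3 CD3 genes. Both older sections were above both younger ones, at median depths of 14003 to 17222.5 UMIs per spot. An exact permutation test of 2 sections against 2 cannot pass 0.05, and none was run. A spot covers several cells, and spot positions were not used here, so no place in the bladder wall is given.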

How the data were processed

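Droplet, nuclei and spatial tables hold UMI counts per gene symbol and barcode, and the bulk table holds read counts per gene, as deposited. Per the submitters' processing notes, Cell Ranger, Space Ranger, Subread and featureCounts were used with mm10. Versions and barcode filters are not given in the sources used here. Gene coordinates are those of RefSeq on GRCm38.p6, whose table is used for location only.

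Members, gene lists and tests were chosen with earlier results of these data known. Fibroblast barcodes had at least 2% of UMIs in the 3 collagen genes, no Ptprc UMI and the same keratin limit. Intervals are exact (Clopper-Pearson, 95%) and cover counting error only. Classes of at least 10 cells per library were summed over the non-mitochondrial genes common to the tables (the male tables hold no mitochondrial counts) and tested in edgeR 4.0.16 on R 4.3.3 (TMM, filterByExpr, robust quasi-likelihood fits with the library as a term, two-sided). Benjamini-Hochberg adjustment ran over all tested genes outside the rule, with a threshold of 0.05. CPM in class comparisons are of these genes, and in T cell subsets and bulk of all counts. Named genes were the 12 with the largest rise and the 10 with the largest fall among those called, with the same direction in every library and a mean of at least 50 CPM in the higher class, beside members of the gene lists. Doublets were kept; as an alternative, barcodes scored by Scrublet in scanpy 1.11.5 were removed at 0.8% per 1000 barcodes (1781 barcodes, 17 of them T cells). Other alternatives were DESeq2 1.42.0, RLE factors, other filters and gates, and leaving out each library. The edgeR script was checked on simulated counts. Planned tests between T cell subsets needed 3 libraries with 10 cells of each and 1 qualified, so they were not run. Of the fixed gene lists, 2 members are not reported here and are left out of list counts and of the type 17 set.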

Additional observations from a re-analysis of the deposited data

Results flagged for a closer look

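The T cell share of Ptprc-positive cells moved in opposite directions with age in the 2 kinds of whole-bladder pool: older minus younger was -17.2 percentage points between the male libraries and 10.6 points between the mixed-sex libraries. Each side rests on 1 older library, and the difference between them was not tested. With only barcodes of at least 1000 UMIs both differences were positive (3.62 in males, 10.6 in mixed-sex libraries). They were also positive when the same barcodes were thinned to 1000 UMIs (13.4 and 7.23).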

How the results depend on the processing

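The count of genes called between T cells and other Ptprc-positive cells was 1964 of 6379 tested, and the number tested changed with the setting. When each library was left out, the count ran from 1281 of 4666 (without the detrusor-only library) to 2268 of 8491 (without the 3-month male library). The genes lower in T cells ran from 819 to 1569 in the same 2 settings. Without a replicate block (no library term) the count was 656 of 3833, with 224 higher and 432 lower. The cause was not tested. With other cells under the C1q limit 1352 of 1616 called genes were shared with the 1964, and in no alternative did a shared gene change sign. Of 2635 values of named and list genes under the alternatives, 2433 kept direction and side of the threshold and 202 lost the call. The 202 fell in 62 of 189 pairs of gene and comparison, bulk included. Genes not tested under an alternative have no value there and are not counted as lost. Without the filter on low counts, 17 genes were called between older and younger T cells, 11 of them higher, and 8 T cell genes in the bulk comparison, where leaving out 1 library gave 7 to 21 calls. Whether the bulk library numbers pair samples is not known (correlations of deviations 0.188, 0.330 and -0.0707). With these numbers as a replicate block 21 were called, against 16 without. The age difference of the T cell share ran from -3.55 to 16.3 points when 1 library was left out, and it was reversed at -2.51 without the 22-month male library and at -3.11 and -3.55 without 12-month library a and b. Leaving out a library of the age comparison of T cell genes left no residual degree of freedom, so that alternative and those of the subset tests gave no values. Depth and cell number limit precision: the T cells of the male libraries had medians of 1249 and 767 UMIs, and 12-month library b held 6 T cells.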
